A study of Mus musculus with 4 samples.

Results

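Interferon-stimulated genes are the genes that cells switch on when they sense an interferon. A list of 40 of them, given by name and not by a threshold on the values, was followed in whole-lung RNA of mice that breathed cigarette smoke. The list was chosen with earlier results of these data known. Of the 40, 38 had a feature on the array that names this gene alone, out of 30142 such genes, and Ifi44 and Ifi27 had none. The study compared male C57BL mice, an inbred laboratory strain, that breathed clean air or mainstream cigarette smoke from 10 weeks of age, for 1 h a day on 5 days a week. The 4 groups were a control of 2 weeks (12 weeks old at the end, 5 mice), smoke for 2 weeks (12 weeks old, 5 mice), a control of 4 weeks (14 weeks old, 5 mice) and smoke for 4 weeks (14 weeks old, 4 mice). The mice of a group were mixed into 1 pool and measured on 1 array, which hides how the animals of a group varied, and duration, age and pool cannot be told apart.

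Interferons are secreted proteins that warn tissue of infection. Type I interferons (Ifna genes, Ifnb1) and type III interferons (Ifnl genes) signal through a complex that holds STAT2 and IRF9 and binds a DNA motif called the interferon-stimulated response element (ISRE), while the type II interferon made by T and NK cells (Ifng) acts through another motif, the gamma-activated site (GAS). The genes switched on detect viral nucleic acid, block viral replication, coat vacuoles that hold microbes, attract T cells and feed back on the pathway itself. In the lung these genes are known for the response to respiratory viruses.

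The promoters of many members hold motifs through which these signals can act, and 6 are shown because their genes had the largest mean smoke or duration difference among members with an ISRE core in the window. Each is the RefSeq sequence of assembly GRCm38.p6 from 250 bases before to 50 bases after the annotated start, 5′ to 3′ on the strand of the gene, with each ISRE core in capitals, so that cores which overlap make 1 longer run.
Cxcl9 promoter (chr5:92328030-92328329, minus strand): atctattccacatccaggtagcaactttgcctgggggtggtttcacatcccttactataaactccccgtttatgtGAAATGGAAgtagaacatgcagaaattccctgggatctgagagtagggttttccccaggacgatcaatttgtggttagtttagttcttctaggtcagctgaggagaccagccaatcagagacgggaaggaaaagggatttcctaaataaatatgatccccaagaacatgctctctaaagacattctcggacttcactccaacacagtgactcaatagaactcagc
Bst2 promoter (chr8:71537423-71537722, minus strand): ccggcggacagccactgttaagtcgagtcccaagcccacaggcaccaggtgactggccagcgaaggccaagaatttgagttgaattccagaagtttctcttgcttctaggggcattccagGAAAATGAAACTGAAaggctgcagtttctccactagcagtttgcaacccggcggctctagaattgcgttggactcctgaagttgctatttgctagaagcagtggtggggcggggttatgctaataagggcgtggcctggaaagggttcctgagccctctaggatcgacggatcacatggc
Cxcl10 promoter (chr5:92348840-92349139, minus strand): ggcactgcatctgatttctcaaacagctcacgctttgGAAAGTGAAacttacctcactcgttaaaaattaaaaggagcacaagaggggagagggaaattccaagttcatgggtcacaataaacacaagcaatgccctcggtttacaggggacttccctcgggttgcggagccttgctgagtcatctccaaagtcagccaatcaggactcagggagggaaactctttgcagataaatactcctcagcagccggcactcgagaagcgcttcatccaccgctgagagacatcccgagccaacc
Oas1a promoter (chr5:120907476-120907775, minus strand): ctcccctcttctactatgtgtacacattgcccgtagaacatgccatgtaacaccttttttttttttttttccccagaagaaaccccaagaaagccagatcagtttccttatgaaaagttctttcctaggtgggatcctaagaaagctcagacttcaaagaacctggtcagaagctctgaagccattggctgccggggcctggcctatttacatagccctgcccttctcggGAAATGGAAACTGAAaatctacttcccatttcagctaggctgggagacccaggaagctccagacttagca
Igtp promoter (chr11:58199306-58199605, plus strand): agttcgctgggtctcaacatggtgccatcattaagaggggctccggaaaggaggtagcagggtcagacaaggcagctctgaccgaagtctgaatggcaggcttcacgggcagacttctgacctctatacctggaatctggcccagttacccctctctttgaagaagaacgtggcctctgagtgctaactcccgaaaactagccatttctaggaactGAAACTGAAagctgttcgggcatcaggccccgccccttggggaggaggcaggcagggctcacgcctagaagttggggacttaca
Ifit1 promoter (chr19:34640639-34640938, plus strand): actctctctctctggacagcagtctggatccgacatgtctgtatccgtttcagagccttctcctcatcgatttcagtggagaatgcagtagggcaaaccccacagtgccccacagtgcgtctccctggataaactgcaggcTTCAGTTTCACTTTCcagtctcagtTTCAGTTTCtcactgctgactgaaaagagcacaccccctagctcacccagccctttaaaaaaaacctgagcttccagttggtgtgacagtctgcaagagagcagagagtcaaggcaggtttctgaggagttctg
The ISRE core was searched as GAAANNGAA on both strands and the GAS as TTCNNNGAA, which reads the same on both strands. Of the 40 members, 29 had a promoter in the RefSeq table, and 19 of these (65.5%) held an ISRE core, against 9.76% of 27025 genes with a promoter. In 9 members there was over 1 ISRE core, against 0.736% of all genes. The printed Ifit1 window held 3 cores, all on the opposite strand, and those of Bst2 and Oas1a held 2 overlapping cores each. A GAS match was found in 7 of the 29 members (24.1%) against 9.55% of all genes, among them Irf1, Igtp and Gbp7, and in Bst2 it overlapped an ISRE core. In the printed windows the first base of the core lay 175 bases before the start of Cxcl9, 213 before that of Cxcl10 and 34 before that of Igtp. Irf7, Irf9, Herc6, Oasl1, Oasl2, Cmpk2 and Xaf1 had neither motif in the window. These are matches of letters in a fixed window of 300 bases and were not measured as binding.

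**Figure D1:**
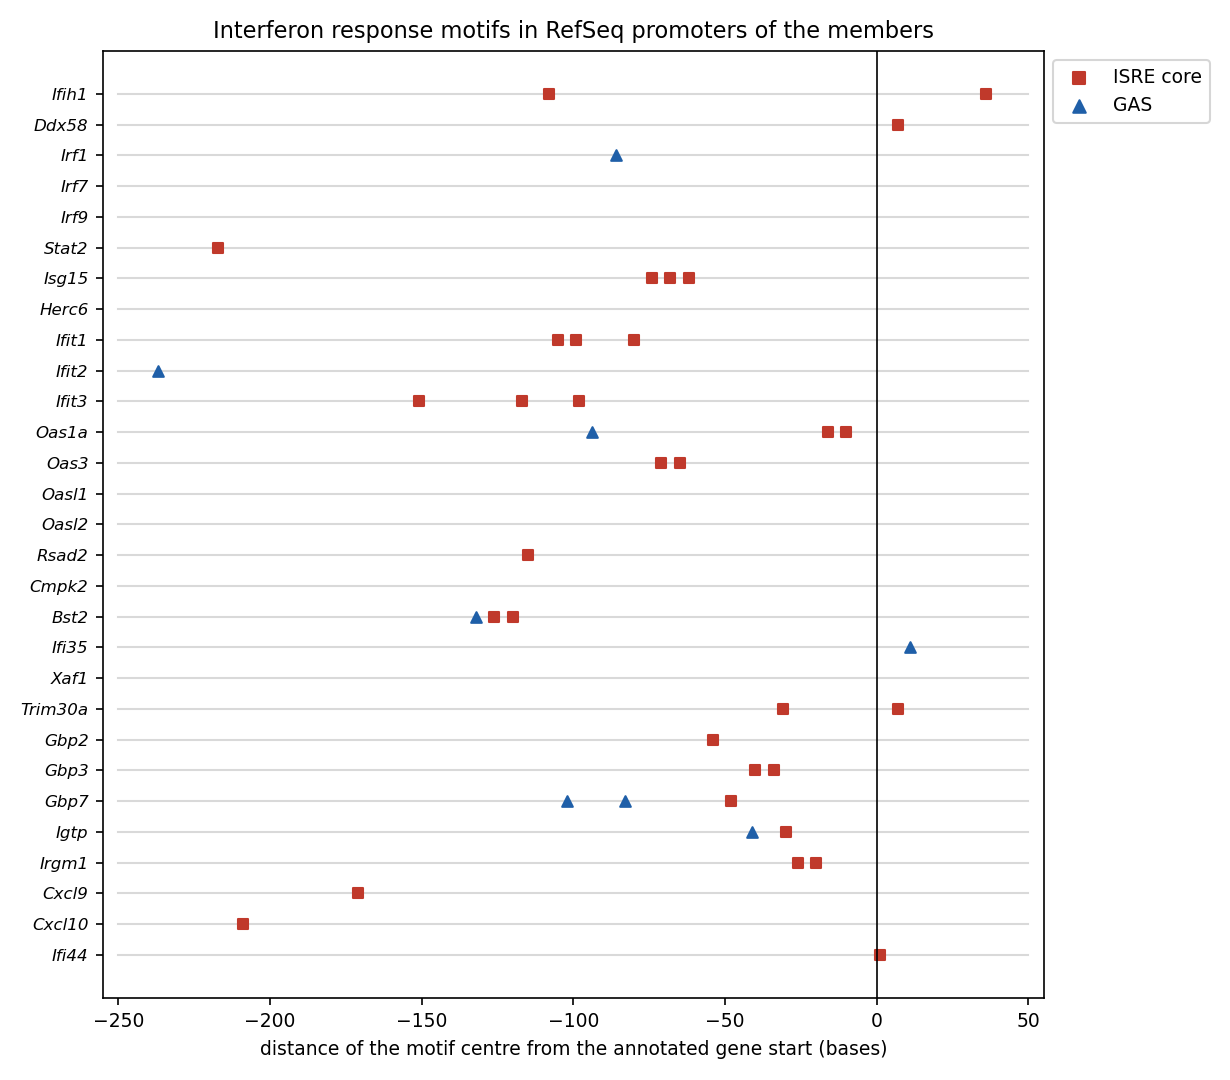
Motif centres in the 29 members with a RefSeq promoter, by distance in bases from the annotated start (squares, ISRE core; triangles, GAS; grey lines, the window searched). Where a gene has more than 1 annotated start, the matches of all its windows are drawn on 1 line. ISRE cores are seen in 19 members and GAS matches in 7.

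Values are given as deposited, as intensities on a linear scale that the authors had normalised with RMA, and a fold is the ratio of 2 deposited values. They reached 845602, and 541 to 581 features per array lay above 65535, the largest number a 16-bit scan can give, so the base from which the linear values were made is in doubt. If it was e and not 2, each log2 difference would be 0.693 times the size given, without a change of direction or of any adjusted p. A gene was tested when the mean of its 4 log2 values lay above the 40th percentile of all genes, a floor of 5.82 that equals a linear value of 56.3. This left 18084 genes, 34 of them members. Oas3, Oasl1, Mx1 and Cxcl10 lay under it. No p-value is attached to a difference between 2 single pools. The smoke and duration effects were tested with limma over all 4 arrays, with 1 residual degree of freedom and Benjamini-Hochberg adjustment over the 18084 genes. The residual of a gene is how much its smoke difference changed between durations, not the spread between mice or between replicate pools. For the SE and p, limma drew this spread toward 1 value estimated from the residuals of all genes fitted. That shared value carried 5.38 degrees of freedom, against 1 from the gene itself. A gene is said to have risen or fallen where its adjusted p in this fit was under 0.05.

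Most of the interferon-stimulated genes were somewhat higher in smoke, and only a few were much higher. Smoke was above control at both durations in 25 of the 34 members above the floor, against 27.2% of all genes above it. The reverse held for 1 member, Rsad2, against 29.3% of all genes. In 17 members both smoke pools lay above both control pools (15.7% of all genes). The median smoke difference of the 34 members was 0.16 on the log2 scale at 2 weeks and 0.20 at 4 weeks, while that of all genes above the floor was 0.01 and -0.02. At 2 weeks 3 members were at least 1.5-fold higher in smoke (1.82% of all genes) and 0 at least 1.5-fold lower (1.22%). At 4 weeks 4 members were higher by this measure (2.53%) and 0 lower (1.5%). In the limma fit 2 members rose, Cxcl9 and Iigp1, against 1.15% of all genes, and 0 fell, against 0.315%. The same 1.15% and 0.315% stand beside the limma counts of each role and list below, also where 0 passed. Cxcl9, included in each count of higher members here, lay above the floor only through its smoke pools. At an unadjusted p under 0.05 the limma fit held 13 members, against 11.6% of all genes. Of these, 12 were higher in smoke and Rsad2 was lower.

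How many members passed depended on which genes were fitted and how the arrays were scaled. With the fit limited to genes annotated as protein coding, 11 of 33 members rose, against 4.49% of the genes: Zbp1, Irf7, Stat2, Oas1a, Oas2, Oasl2, Rtp4, Igtp, Irgm1, Iigp1 and Cxcl9. Centring the arrays on the median of all 30142 genes with a feature passed 3 members, Oas1a, Iigp1 and Cxcl9. Of all 18084 genes, 351 then rose and 241 fell, against 208 and 57 as reported. After the arrays were centred on the median of the genes above the floor, 0 members passed limma, and of all genes only 8 rose and 0 fell. This alternative was added after the data had been seen. The limma adjusted p after this last centring was 0.0754 for Cxcl9 and 0.112 for Iigp1. Over the alternatives run, the adjusted p ranged from 1.24e-13 to 0.752 for Cxcl9 and from 0.000197 to 0.893 for Iigp1. With 3 pools the fit has no residual left unless the other term is dropped too, so leaving out a pool changes both. Smoke fitted without the duration term passed 0 members and 0 genes with all 4 pools. With 1 pool left out as well, the median smoke effect of the members ran from 0.0997 to 0.272 (log2).

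**Figure D2:**
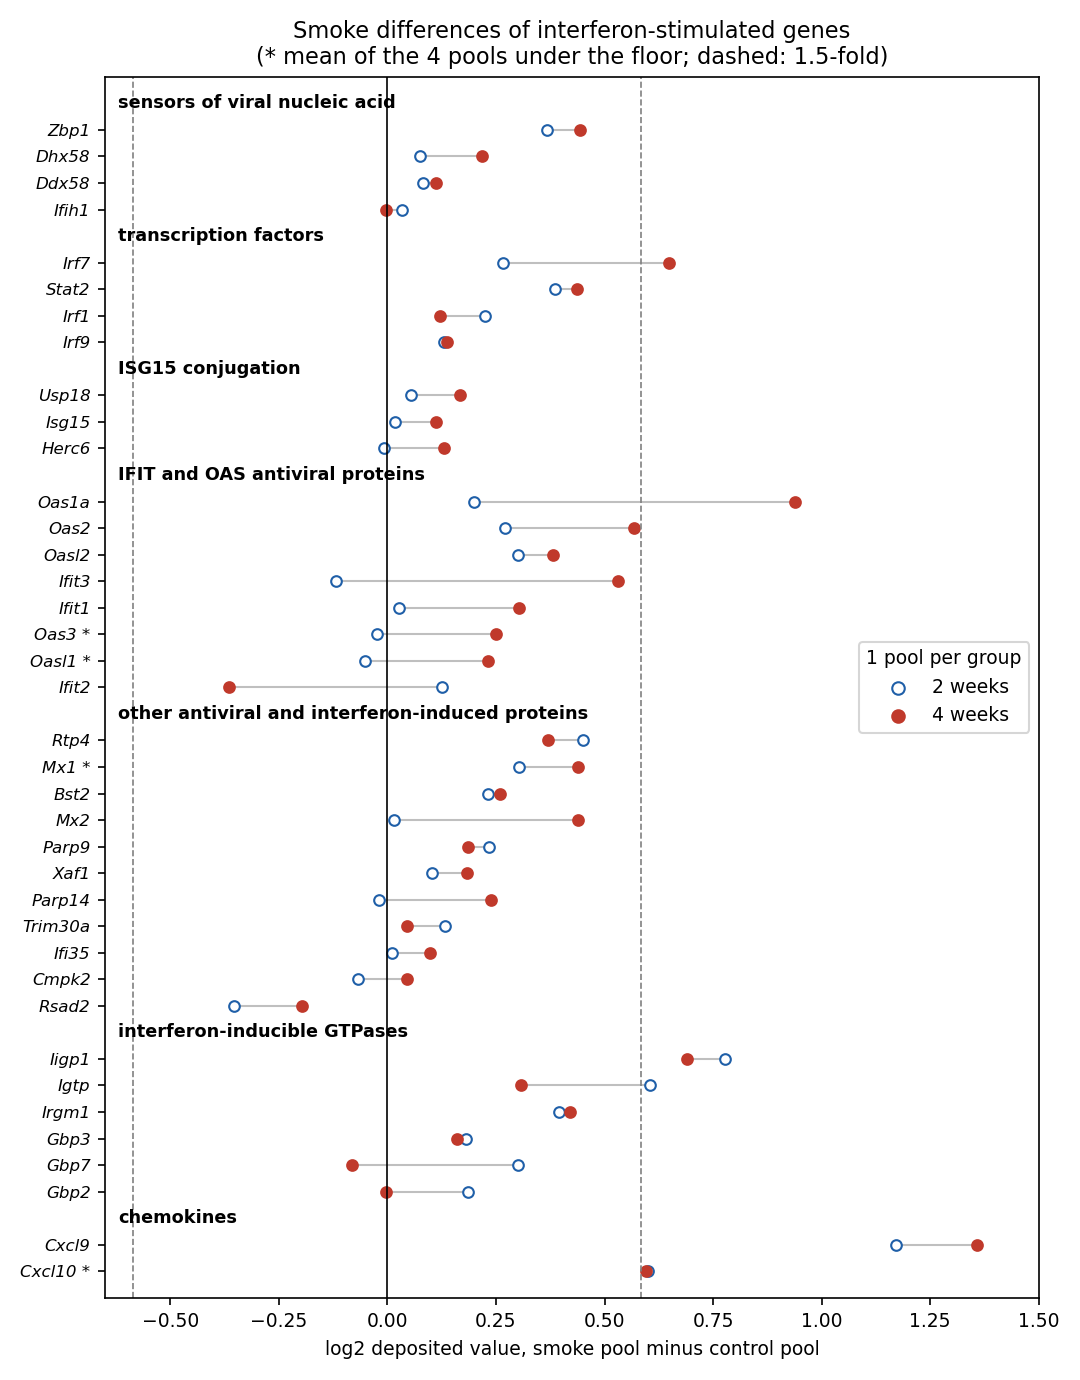
Difference between smoke and control in log2 deposited value for the 38 members with a feature, grouped by role and ordered by mean difference within it (open circles, 2 weeks; filled circles, 4 weeks; 1 pool per group, no error). Most points lie to the right of 0, Cxcl9 lies farthest right, and Rsad2 lies to the left at both durations. Members marked with an asterisk lay under the floor.

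The chemokines Cxcl9 and Cxcl10 encode secreted ligands of the receptor CXCR3, which draw activated T cells and NK cells into tissue. At 2 weeks Cxcl9 had a deposited value of 35.4 in the control and 79.8 in smoke. At 4 weeks it had 41.8 in the control and 107 in smoke. Both smoke pools were therefore well above both controls, by 2.25-fold at 2 weeks and 2.56-fold at 4 weeks (1.76-fold and 1.92-fold if the base was e). Cxcl9 rose in the limma fit by 1.26 ± 0.107 (log2, SE, n = 4 arrays; adjusted p = 0.00598), which is rank 61 of the 18084 genes when these are ordered from the highest to the lowest smoke effect. Both control values lie below the floor of 56.3, so Cxcl9 was tested only because of its smoke pools. Cxcl10 had values of 28.6 and 43.3 at 2 weeks and 32.7 and 49.4 at 4 weeks, control first. It was 1.52-fold and 1.51-fold higher in smoke, but all 4 values lie under the floor. With no floor limma gave it an adjusted p of 0.0815.

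The interferon-inducible GTPases guard cells against microbes that live in vacuoles and are known as strong targets of type II interferon in mice. They had a median smoke difference of 0.35 at 2 weeks and 0.23 at 4 weeks (log2). Of the 6, 1 rose, Iigp1, against 1.15% of all genes. Iigp1, an immunity-related GTPase that loads onto such vacuoles, had values of 236 in control and 404 in smoke at 2 weeks, and 198 and 319.7 at 4 weeks. Its smoke pools did not overlap its controls and were 1.71-fold and 1.61-fold higher, with a limma effect of 0.73 ± 0.102 (log2, SE, n = 4 arrays; adjusted p = 0.0303). The values of Igtp, also called IRGM3, a regulator of the other GTPases of this family, were 871 and 1324 at 2 weeks and 1113 and 1377 at 4 weeks. The difference at 2 weeks was 1.52-fold and that at 4 weeks 1.24-fold, since the later control was higher, and limma gave an adjusted p of 0.178. Irgm1, another regulator of the family, had 1.32-fold and 1.34-fold higher values in smoke (limma adjusted p = 0.165). The guanylate-binding proteins, larger GTPases that attack the membranes of microbes, differed less. Gbp7 had values of 8745 and 10773 at 2 weeks but 8867 and 8384 at 4 weeks, so its smoke pool was the higher one at 2 weeks and the lower one at 4 weeks. Gbp2 had smoke-to-control ratios of 1.14 and 0.998, and Gbp3 of 1.13 and 1.12.

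**Figure D3:**
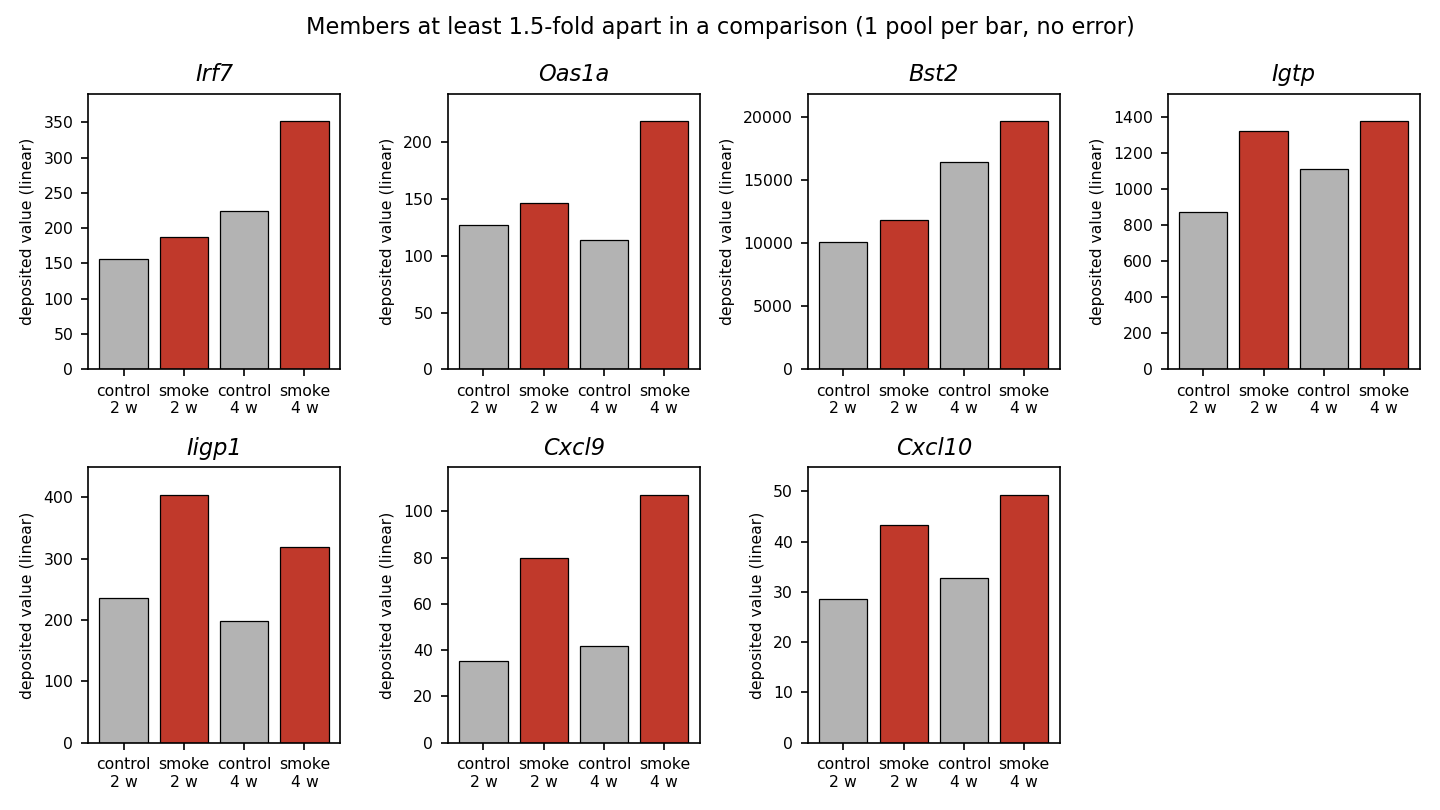
Deposited values (linear scale from 0) of the 7 members whose pools differed at least 1.5-fold between smoke and control or between the 2 controls (grey, control; red, smoke; each bar is 1 pool, so there is no error bar). In Cxcl9, Cxcl10, Iigp1, Igtp and Oas1a both red bars stand above both grey bars, whereas in Irf7 and Bst2 the 4-week control is above the 2-week smoke pool.

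The transcription factors of the pathway had a median smoke difference of 0.24 at 2 weeks and 0.29 at 4 weeks (log2). All 4 were higher in smoke at both durations, against 27.2% of all genes, though 0 of the 4 passed limma. Irf7 amplifies type I interferon production and is itself induced by interferon. Its values were 156 and 187 at 2 weeks and 224 and 352 at 4 weeks, so the 4-week smoke pool was highest and the 4-week control lay above the 2-week smoke pool. The smoke ratio was 1.20 at 2 weeks and 1.57 at 4 weeks, and limma gave a smoke effect of 0.46 ± 0.126 (log2, SE, n = 4 arrays; adjusted p = 0.212). Without the 4-week smoke pool and the duration term this effect was 0.0025, and without the 2-week smoke pool and that term it was 0.91. Stat2, a part of the complex that binds the ISRE, had values of 1114 and 1455 at 2 weeks and 1234 and 1671 at 4 weeks. Its ratios of 1.31 and 1.35 were close at the 2 durations, with a limma adjusted p of 0.162. Irf9, the DNA-binding part of that complex, had a ratio of 1.10 at both durations. Irf1, a factor induced mainly by type II interferon, had ratios of 1.17 and 1.09 from the feature used, while a second, dimmer feature had lower values in smoke at both durations (98.1 and 80.7 at 2 weeks, 84.7 and 66.4 at 4 weeks).

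The IFIT proteins bind foreign RNA, and the OAS proteins make a messenger molecule that activates the RNA-cutting enzyme RNase L. Their median smoke difference over the 6 members above the floor was 0.16 at 2 weeks and 0.46 at 4 weeks (log2), and 0 passed limma. Oas1a had values of 127 and 146 at 2 weeks and 114 and 219 at 4 weeks. The 4-week smoke pool stood well above the other 3, with a ratio of 1.92 against 1.15 at 2 weeks, and limma gave 0.57 ± 0.177 (log2, SE, n = 4 arrays; adjusted p = 0.267). Oas1g, a close paralog outside the list, had values of 96.3 and 105 at 2 weeks and 77.6 and 146 at 4 weeks, and probes for such similar genes may share signal. Oas2 had smoke ratios of 1.21 and 1.48, and Oasl2, a protein related to OAS without its enzyme activity, had 1.23 and 1.30. The IFIT genes had no common direction. Ifit3 had values of 1164 and 1072 at 2 weeks and 933 and 1349 at 4 weeks, so smoke was lower first and higher later. Ifit2 had 566 and 618 at 2 weeks and 568 and 441 at 4 weeks, the opposite order. Ifit1 had ratios of 1.02 and 1.23. Oas3 had values of 34.2 and 33.6 at 2 weeks and 33.1 and 39.3 at 4 weeks, all under the floor, and the mean of Oasl1 lay under it too.

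Among the sensors of viral nucleic acid, Zbp1 had the largest smoke difference at both durations, and 0 of the 4 passed limma. Zbp1, which senses nucleic acid in the Z form and can trigger cell death, had values of 103 and 132 at 2 weeks and 127 and 173 at 4 weeks. Its smoke ratios were 1.29 and 1.36, with both smoke pools above both controls and a limma adjusted p of 0.17. Ddx58, which encodes the RNA sensor RIG-I, had values of 1558 and 1650.3 at 2 weeks and 1453 and 1569.7 at 4 weeks, ratios of 1.06 and 1.08. Ifih1, which encodes the RNA sensor MDA5, had ratios of 1.02 and 0.998. Dhx58, a helicase that regulates both, had 1.05 and 1.16.

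ISG15 is a small protein that interferon-treated cells attach to other proteins, with Herc6 as the mouse ligase and Usp18 as the enzyme that removes it and damps signalling by the type I receptor. The 3 genes had a median smoke difference of 0.02 at 2 weeks and 0.13 at 4 weeks (log2), and 0 passed limma. Isg15 had values of 69.8 and 70.7 at 2 weeks and 69.6 and 75.2 at 4 weeks, close to the floor in all 4 pools. Herc6 had 1253 and 1246 at 2 weeks and 1149 and 1257 at 4 weeks. Neither gene showed a difference of even 1.10-fold. Usp18 had smoke ratios of 1.04 and 1.12.

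The other antiviral proteins differed in direction. Bst2 encodes tetherin, which holds budding viruses at the cell surface. Its values were 10068 and 11828 at 2 weeks and 16469 and 19701 at 4 weeks. Smoke was 1.17-fold and 1.20-fold higher, and the larger step was between durations. Rtp4, an interferon-induced chaperone of membrane receptors, had smoke ratios of 1.37 and 1.29, and both smoke pools lay above both controls (limma adjusted p = 0.166). Rsad2, which encodes viperin, an enzyme that makes a nucleotide that stops viral RNA synthesis, had values of 167 and 131 at 2 weeks and 179 and 156 at 4 weeks. It was the only one of the 34 with lower values in smoke at both durations, with a limma effect of -0.27 ± 0.105 (log2, SE, n = 4 arrays; adjusted p = 0.38). Cmpk2, a mitochondrial nucleotide kinase, had ratios of 0.954 and 1.03. Mx1 and Mx2 encode GTPases that block incoming viruses, and both are annotated as transcribed pseudogenes in the assembly GRCm38.p6. Mx1 had values of 45.5 and 56.2 at 2 weeks and 44.7 and 60.5 at 4 weeks, with a mean under the floor. Mx2 had smoke ratios of 1.01 and 1.36. Parp9, Parp14, Xaf1, Ifi35 and Trim30a had ratios between 0.986 and 1.18.

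Several members also differed between the 4-week and the 2-week pools. The 4-week pool was above the 2-week pool in smoke and in control in 17 of the 34 members, against 32.5% of all genes. These differences use the same 4 arrays as the smoke differences. Between the control pools, 1 member, Bst2, was at least 1.5-fold higher at 4 weeks (1.85% of all genes) and 0 were lower (2.25%). Between the smoke pools 3 members, Irf7, Oas2 and Bst2, were at least 1.5-fold higher at 4 weeks (1.35% of all genes) and 0 lower (1.79%). The 4-week to 2-week ratio of Bst2 was 1.64 in control and 1.67 in smoke, and that of Irf7 was 1.44 and 1.88. The limma duration effect was 0.72 ± 0.101 for Bst2 and 0.72 ± 0.126 for Irf7 (log2, SE, n = 4 arrays), each with an adjusted p of 0.103. In limma 0 members passed for duration, and 0% of all genes did. At an unadjusted p under 0.05 in limma there were 11 members, against 15.7% of all genes in either direction. Iigp1 among them was lower at 4 weeks (duration effect -0.29, log2), and the others were higher. In the fit of protein-coding genes alone 6 of 33 members rose with duration, Irf7, Usp18, Ifit1, Oas2, Oasl2 and Bst2, against 2.27% of genes. The signed smoke difference was larger at 4 than at 2 weeks in 23 of the 34 members, against 43.2% of all genes, and with 1 pool per group this change could not be tested.

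**Figure D4:**
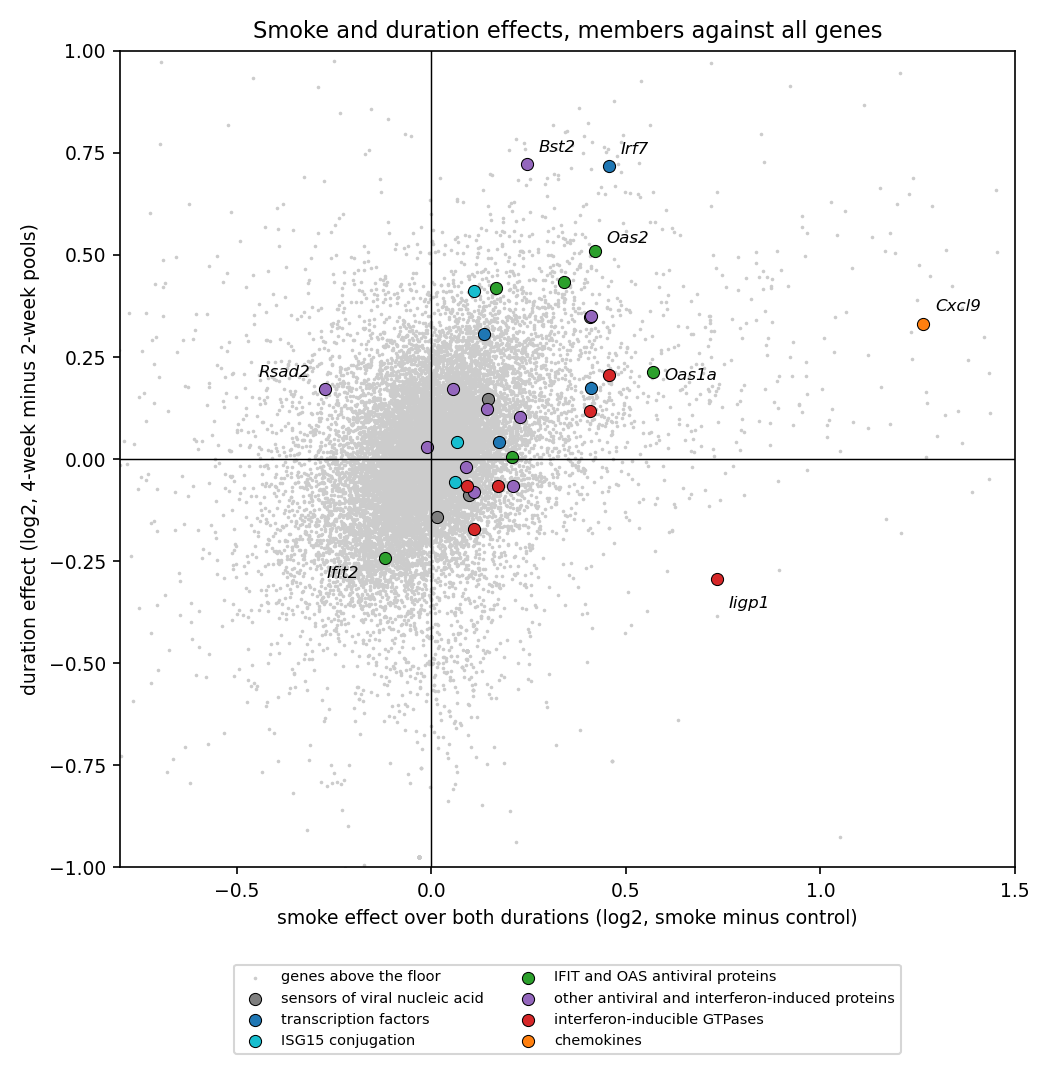
Smoke effect over both durations (x axis, log2) against duration effect over smoke and control (y axis, log2) for the 34 members above the floor, coloured by role, over all 18084 genes above it in grey; grey genes beyond the axis limits are not drawn. Cxcl9 and Iigp1 lie to the right, while Bst2 and Irf7 lie highest among the members.

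The interferon genes themselves mostly lay under the floor. Of 21 listed ligand genes, 18 had a feature, 15 of these lay under the floor, and 0 of the 3 above it passed limma. Ifng had values of 22.2 and 20.4 at 2 weeks and 22.0 and 20.7 at 4 weeks, and Ifnb1 had 47.5 and 43.8, then 47.2 and 54.2. Neither therefore had a level above the floor in any pool. Of 14 receptors, kinases and transducers, 13 were above the floor and 0 passed limma. Among them Ifnar1, part of the type I receptor, had smoke ratios of 1.16 and 1.09. The parts of the type II receptor differed in direction, Ifngr1 with ratios of 0.930 and 0.880 and Ifngr2 with 1.21 and 1.27. Irf8, a factor of myeloid cells, had ratios of 1.29 and 1.29. Of the inhibitors of the pathway 0 of 7 above the floor passed limma. Socs1, which blocks the receptor kinases, lay under the floor at 49.0 and 52.7 at 2 weeks and 49.1 and 55.5 at 4 weeks.

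Of the sensors and adaptors upstream of interferon, 2 of 13 rose, against 1.15% of all genes. Tlr7, an endosomal receptor for single-stranded RNA, had values of 379 and 742 at 2 weeks and 413 and 765 at 4 weeks, with a limma effect of 0.93 ± 0.102 (log2, SE, n = 4 arrays; adjusted p = 0.0143). Sting1, an adaptor that relays the sensing of cytosolic DNA, had 526 and 843 at 2 weeks and 804 and 1190.1 at 4 weeks, with a limma effect of 0.62 ± 0.103 (log2, SE, n = 4 arrays; adjusted p = 0.0499). Among 42 further interferon-induced genes above the floor, 1 rose, Lgals3bp, against 1.15% of all genes. Lgals3bp, a secreted glycoprotein, had values of 2796 and 5715 at 2 weeks and 6283 and 11173 at 4 weeks (limma adjusted p = 0.0177). Irgm2, a GTPase of the same family as Igtp, had smoke ratios of 1.80 and 1.36 (limma adjusted p = 0.0897). The median smoke difference of these 42 genes was 0.13 at 2 weeks and 0.06 at 4 weeks (log2), beside 0.16 and 0.20 for the members. Of 10 genes of MHC class I presentation, which interferon also induces, 0 passed limma. In smoke 9 of them were higher at both durations, against 27.2% of all genes.

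In bulk lung, a changed number of cells of one type and a changed amount of RNA per cell cannot be told apart. Each sum below covers all markers of a list with a feature, those under the floor too, while limma counts cover only those above it. Most markers of macrophages were higher in smoke at both durations, against 27.2% of all genes. This held for 6 of 8 alveolar macrophage markers and 9 of 10 of monocytes and interstitial macrophages. Lower at both were 1 of the 8 and 0 of the 10, against 29.3% of all genes. The summed value of 8 alveolar macrophage markers was 24545 and 48839 at 2 weeks and 28249.6 and 63059.5 at 4 weeks. Of the 8, 4 rose (1.15% of all genes), Marco, Itgax, Mrc1 and Plet1. Marco, a scavenger receptor, had smoke ratios of 4.65 and 9.01. Of 10 markers of monocytes and interstitial macrophages 4 rose (1.15% of all genes), C1qa, C1qb, C1qc and Ms4a7. The 10 had summed values of 50411 and 60659 at 2 weeks and 88779 and 77956 at 4 weeks, so their sum was lower in smoke at 4 weeks. The markers of plasmacytoid dendritic cells, known for making type I interferon, summed to 7752 and 7196, then 7703 and 5866, and 0 of 6 passed limma. T and NK cell markers summed to 1931 and 2349, then 2336 and 2355, and 0 of 12 passed. Of 7 conventional dendritic cell markers 1 rose, Itgae (1.15% of all genes). Of 9 endothelial markers 1 fell, Cldn5 (0.315% of all genes), while 8 were lower in smoke at both durations (29.3%). The endothelial markers summed to 414517 and 359796, then 390948 and 315590.0. Neutrophil markers summed to 2967 and 2855, then 5580.3 and 2255, and 0 of 8 passed limma. Of the 8, 4 were lower in smoke at both durations, against 29.3% of all genes. The smoke ratio of S100a9, a calcium-binding protein of neutrophils, was 0.657 and 0.242, and that of Stfa2l1, another neutrophil marker, was 1.07 and 0.305. The part of these cell types in the members' differences was not tested. The defining markers of lung epithelium were all above the floor, 9 of 9 alveolar and 7 of 7 airway ones. Of the cardiac muscle markers, 6 of 6 were above the floor. In smoke 5 of these were lower at both durations, against 29.3% of all genes.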

How the data were processed

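RNA from whole lungs was measured on 4 arrays, 1 pool of 4 or 5 mice per group, grouped by title. The RNeasy Mini Kit and the GeneChip WT PLUS kit were used for extraction and biotin labelling, per the labels' protocols. The authors' deposited values are linear intensities. The submitters' processing notes name RMA and Affymetrix Expression Console 1.4.1; RMA removes shifts common to all genes of an array. The genome build was not given in the sources used here. Values on the log2 scale had been foreseen, so log2 of the intensities was taken.

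The array annotation gave 1 gene symbol for 30604 of 65956 features and several for 2146, and did not list 33206. Symbols were updated by Entrez ID through a RefSeq table (GRCm38.p6; 22818 matched, 827 changed), and the feature with the highest mean was used for the 355 genes with over 1. Listed symbols that RefSeq holds only as older names were matched through its synonyms. The table held 0 columns of other samples. Smoke and duration were fitted additively with limma 3.58.1 (R 4.3.3, lmFit and eBayes, prior 5.38 degrees of freedom). The fit was also run on simulated data in which 200 of 18084 genes were changed by smoke. The noise was drawn independently for each array, with spreads from the limma prior of these same 4 arrays and no duration effect. There the fit recovered 33.8% of the 1.5-fold changes and 96.4% of the 2-fold ones, and 9.3% of its calls at an adjusted p under 0.05 were false. These rates hold for that noise only, since the spread between mice or replicate pools was not measured. The number of arrays limits the precision. Named were members past a limma or 1.5-fold threshold and the highest-mean and lowest-mean member of each role, and outside the list a fixed handful plus the genes of each pathway or marker list with the largest effects; further members were named after their values were seen. The members and lists were chosen with earlier results of these data known. Alternatives were other floors, scalings, folds, limma settings, feature rules and each pool left out.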

Additional observations from a re-analysis of the deposited data

Results flagged for a closer look

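Ifit2 and Ifit3 had smoke differences of opposite sign at the 2 durations. The difference in Ifit2 was 0.13 at 2 weeks and -0.36 at 4 weeks (log2), a change of -0.49. In Ifit3 it was -0.12 at 2 weeks and 0.53 at 4 weeks, a change of 0.65. Each group was 1 pool, and this difference between durations was not tested.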

How the results depend on the processing

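No paired analysis was possible because each group has 1 pool, so no groups share 2 replicate numbers; the reported fit compares smoke with control within each duration. The plan for median centring and cyclic loess did not name the genes on which the arrays are scaled. The genes with 1 symbol were used first; all features of the array and the genes above the floor were tried after those results had been seen, and all 3 are given. For smoke, 2 members passed limma as reported, among 208 genes that rose and 57 that fell. Median centring on the genes with 1 symbol gave 3 (Oas1a, Iigp1 and Cxcl9, among 351 and 241 genes), as on all features (375 and 210 genes). Cyclic loess on the genes with 1 symbol left 1 (Cxcl9, 35 and 1 genes), as on all features (64 and 8 genes). On the genes above the floor, median centring left 0 (8 and 0 genes) and cyclic loess 0 (24 and 0 genes). The 60th percentile as the floor left 1 of 26, since it drops Cxcl9 (263 and 116 of 12057 genes). Protein-coding genes gave 11 (565 and 317 of 12581 genes), and smoke without a duration term gave 0, as for all genes. For duration, 0 members and 0 genes passed as reported. Median centring gave 3 on all features (351 genes rose and 326 fell) and 3 on the genes with 1 symbol (299 and 456). The higher floor gave 2 (148 and 183 of 12057 genes) and protein-coding genes gave 6 (286 and 70 of 12581). The causes were not tested. Cxcl9 passed under 10 of 17 alternatives and Iigp1 under 9 of 18.

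Members at least 1.5-fold apart (3 and 4 for smoke at 2 and 4 weeks, 1 and 3 between durations in control and smoke) became 8, 13, 7 and 13 at a log2 difference of 0.32. Of these 1, 1, 0 and 3 were lower, and of all genes 1130, 1632, 1563 and 1427 were higher and 1009, 1383, 1382 and 1417 lower. At 2-fold they became 1, 1, 0 and 0 (94, 114, 51 and 23 of all genes higher and 42, 44, 88 and 47 lower). If the base was e they became 1, 2, 0 and 1 (133, 177, 107 and 46 higher and 77, 91, 126 and 73 lower). Median centring on all features gave 2 between controls (476 of all genes higher and 269 lower). Cyclic loess on all features gave 5 between smoke pools (312 and 270). The higher floor gave 2 for smoke at 4 weeks (286 and 223 of 12057 genes) and a median of 0.072 (log2) between smoke pools. Leaving out 1 pool also removed the other term from the fit, since no residual is left with both. The median smoke effect of the members then ran from 0.0997 to 0.272 (log2), and their median duration effect from -0.030 to 0.239. The effects that changed sign ran from -0.12 to 0.61 for Bst2 and smoke (-0.11 without the 2-week control, -0.12 without the 4-week smoke pool), and for duration from -0.097 (without the 2-week control) to 0.51 for Igtp, from -0.35 to 1.01 for Cxcl9 (-0.25 without the 2-week control), from -0.68 to 0.095 for Iigp1 (0.050 without the 4-week control) and from -0.26 (without the 4-week smoke pool) to 0.68 for Oas1a. With a pool left out the effects of smoke and duration are mixed.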
